A study of Homo sapiens with 7 samples.

Results

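The transcriptome of Panc1 cells carrying an empty expression vector was described from the 3 arrays labelled as vector control, out of 7 arrays in the series. Panc1 is an established human cell line from a pancreatic cancer. The study looked for genes regulated by the calcium-binding protein S100P. Its stable lines received either the plasmid pcDNA3.1/V5-His, which has no insert, or pcDNA3.1/S100P-V5-His, which encodes tagged S100P, and clones grown from single cells were isolated from each. All lines were kept in DMEM with fetal bovine serum and harvested before confluence. The vector group held 2 clones, V3 with 2 arrays (a and b) and V1 with 1 array. Both are clones of a single cell, so a property of a clone and of the parental line cannot be told apart, and nothing in the labels states that the V3 arrays are independent cultures, so a spread between them may be technical. The 4 arrays of the S100P clones entered nothing below except the estimate of the spread between arrays of a clone. Total RNA was hybridised to the Affymetrix HG-U133 Plus 2.0 array, and the deposited values are log2 levels made by the authors with RMA. This method corrects background, equalises the distributions of arrays and summarises the probes of a probe set into a log2 level.

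Pancreatic ductal carcinoma arises in the exocrine pancreas, where duct cells carry simple keratins and bicarbonate transporters and acinar cells make digestive enzymes. Its cell lines range from epithelial ones, which hold E-cadherin at their junctions, to mesenchymal ones, in which vimentin, N-cadherin and repressors such as ZEB1 are present. Panc1 is widely used as a line towards the mesenchymal end. Growth factor receptors, integrins and rewired use of glucose, glutamine and serine are recurrent themes in these cells.

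The probe set with the highest mean over the 3 vector arrays stood for its gene, which gave 19775 genes. It was called bright where that mean lay among the top 10% of the 54613 probe sets that were not controls (a log2 level of at least 8.75), dim where it lay at or below their median (4.53), and intermediate between these limits. By this rule 3574 genes (18.1%) were bright and 6954 (35.2%) dim, and these shares are the background for each count below. The brightness of a probe set depends on how its probes bind as well as on the transcript. Tiers and ranks therefore order probe sets and not transcript abundance. A dim gene is not shown to be silent, and an intermediate gene is not shown to be expressed. The 3 arrays placed 18272 genes (92.4%) in the same tier, and 80.2% of genes had an SD under 0.25 over the 3 arrays. Probe sets of a gene differed more than arrays did: of 10523 genes with at least 2 probe sets, 4883 had all of them in 1 tier. Arrays a and b of V3 differed by 1 log2 unit or more at 0.0421% of probe sets, and V1 differed from them at 1.76% and 1.68%. Each pair of the 3 arrays held identical values at 5.69% to 7.17% of probe sets, that of FOS on V3 a and b among them. The genes described below came from 57 lists of lineage, adhesion, signalling and metabolic genes, plus genes used by nearly all cells. Of 1073 listed genes, 963 had a probe set that names them alone, and the others were not analysed here.

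The 25 brightest genes were led by the translation machinery, with 12 ribosomal protein genes such as RPS16 (14.29 ± 0.10, SD, n = 3 here and below) and the elongation factor EEF1A1 (14.03 ± 0.09). Another 5 were encoded by the mitochondrial genome, among them COX1 and COX2, subunits of cytochrome c oxidase. The remaining ones held cytoskeletal and lineage genes: ACTB (13.74), ANXA2 (13.71), a membrane-binding annexin, the intermediate filament gene VIM (rank 23 of all genes) and the simple keratin gene KRT18 (rank 25). A mesenchymal and an epithelial filament gene thus stood side by side among the brightest genes. Of 17 genes used by nearly all cells, 15 were bright and none was dim.

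**Figure D1:**
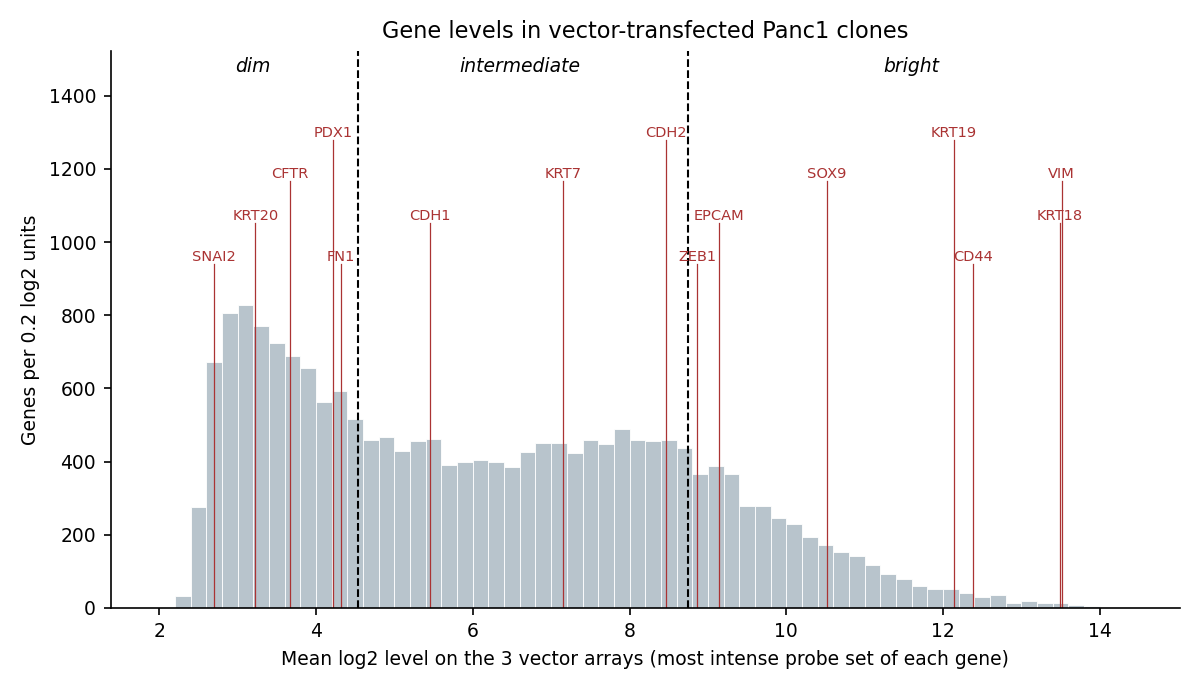
Number of genes per 0.2 log2 units of mean level over the 3 vector arrays, with the limits of dim (4.53) and bright (8.75) as dashed lines and 15 lineage genes marked in red. KRT18 and VIM stand at the bright end, whereas CFTR, PDX1, KRT20 and SNAI2 stand in the dim peak.

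Among keratins, those of simple epithelia were bright. KRT18 read 13.56 and 13.68 on V3 a and b and 13.25 on V1. Its partner KRT8 read 12.30, 12.55 and 11.68, and the ductal keratin KRT19 read 12.33, 12.36 and 11.74. For all 3 genes the V1 array was the lowest. KRT7, another duct keratin, was intermediate (7.15 ± 0.23), and the intestinal keratin KRT20 was dim (3.23). Keratins of stratified epithelia were dim in 8 of 10 cases, including KRT5 (4.21) and KRT14 (3.35). The exception in the bright tier was KRT10 (9.90), a keratin of differentiating epidermis.

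The wider epithelial programme was only partly bright. Of 20 epithelial identity genes, 2 were bright, 10 intermediate and 8 dim. The bright pair were SPINT2 (11.89), an inhibitor of membrane serine proteases, and EPCAM (9.15 ± 0.25), an epithelial adhesion molecule. CDH1, which encodes E-cadherin, read 6.17 and 6.36 on V3 and 3.83 on V1, so that it was intermediate in one clone and dim in the other. Its second probe set was dim on all 3 arrays (3.39, 3.61 and 3.07). The splicing regulator ESRP1 (3.99), the trafficking gene RAB25 (3.71) and the transcription factors GRHL2 (3.12), OVOL2 (3.74) and EHF (3.33) were dim. Claudins CLDN7 (8.10) and CLDN4 (7.95), which seal tight junctions, were intermediate.

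Mesenchymal genes divided in the same way. VIM read 13.40, 13.51 and 13.63 in the order V3 a, V3 b and V1, and the galactose-binding lectin gene LGALS1 (13.06), the calcium-binding S100A4 (11.65) and NT5E (10.75), the ecto-enzyme CD73, were bright as well. CDH2, encoding N-cadherin, read 8.49, 8.58 and 8.33, just under the bright limit. In contrast, 9 of 22 genes of the list were dim, and most of these make or mark fibroblast matrix: COL1A2 (3.80), COL3A1 (3.94), DCN (3.96), LUM (2.95), POSTN (3.04) and the fibroblast protease gene FAP (3.82). The bright share of the list (18.18%) and its dim share (40.91%) both lay near those of all genes (18.1% and 35.2%). FN1, the gene of fibronectin, was dim at all its 7 probe sets, of which the brightest read 4.28, 4.28 and 4.40. COL1A1 was intermediate (6.91).

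Of the 11 transcription factors linked to epithelial-mesenchymal transition, ZEB1 and TCF3 were bright. ZEB1, a repressor of CDH1, read 8.88, 9.03 and 8.68, close to the bright limit, and its other probe sets had means of 6.89, 6.30 and 3.78. FOXC2 was intermediate (7.92 ± 0.42). SNAI2 (2.70), TWIST1 (2.80) and ZEB2 (3.21) were dim with V3 and V1 alike, and SNAI1 was intermediate (5.92).

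Ductal and pancreatic identity was carried by few bright genes. SOX9, the transcription factor of duct and progenitor cells, read 10.55, 10.70 and 10.30, and its second probe set was bright too (10.32 ± 0.36). FOXA2 (7.74) and GATA4 (6.80), endodermal factors, were intermediate. PDX1 (4.21), the master factor of pancreas development, GATA6 (4.02), and the duct transporters CFTR (3.67) and SLC4A4 (3.38) were dim, and CFTR was so at all its probe sets. Genes that define the classical subtype of pancreatic cancer were bright in 1 of 20 cases, AGR2 (10.93), a protein disulphide isomerase of secretory cells, and dim in 11. Genes of the basal-like subtype were bright in 1 of 19 cases, the cathepsin gene CTSV (10.03), and dim in 10. Both shares lay under the background of bright genes, so that neither subtype list was bright in these clones.

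Acinar markers were dim in 12 of 15 cases and bright in none: the lipase genes CEL (3.49) and PNLIP (3.05) and the carboxypeptidase CPA1 (2.71) were among the dim ones. Endocrine markers were dim in 15 of 20 cases, with insulin (INS, 4.06), glucagon (GCG, 2.68) and somatostatin (SST, 3.85) among them. ENO2, a neuronal and endocrine enolase, was the brightest of that list (7.41), in the intermediate tier. Of 18 neural genes 3 were bright, a share (16.67%) near that of all genes (18.1%), and 8 were dim. The bright ones were TUBB3 (11.04, 11.20 and 11.86), a tubulin of neurons, L1CAM (10.41, 10.54 and 9.57), an adhesion molecule of axons, and NES (9.24), the filament of neural progenitors. Neurofilaments NEFL (3.03), NEFM (3.22) and NEFH (3.50) and the neuronal DCX (3.15) were dim.

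Markers of cell types that the line is not known for were largely dim. The 60 measured markers of leukocytes, endothelium, erythroid cells, muscle and acinar cells had a median of 4.22, with 42 dim, 18 intermediate and none bright. PTPRC (CD45) had a mean of 3.18, CDH5 of 2.94 and the muscle myosin MYH2 of 2.66. The highest was myoglobin, MB (7.63 ± 0.61). Markers of hepatocytes had none in the bright tier either, and albumin (ALB) had a mean of 3.30.

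**Figure D2:**
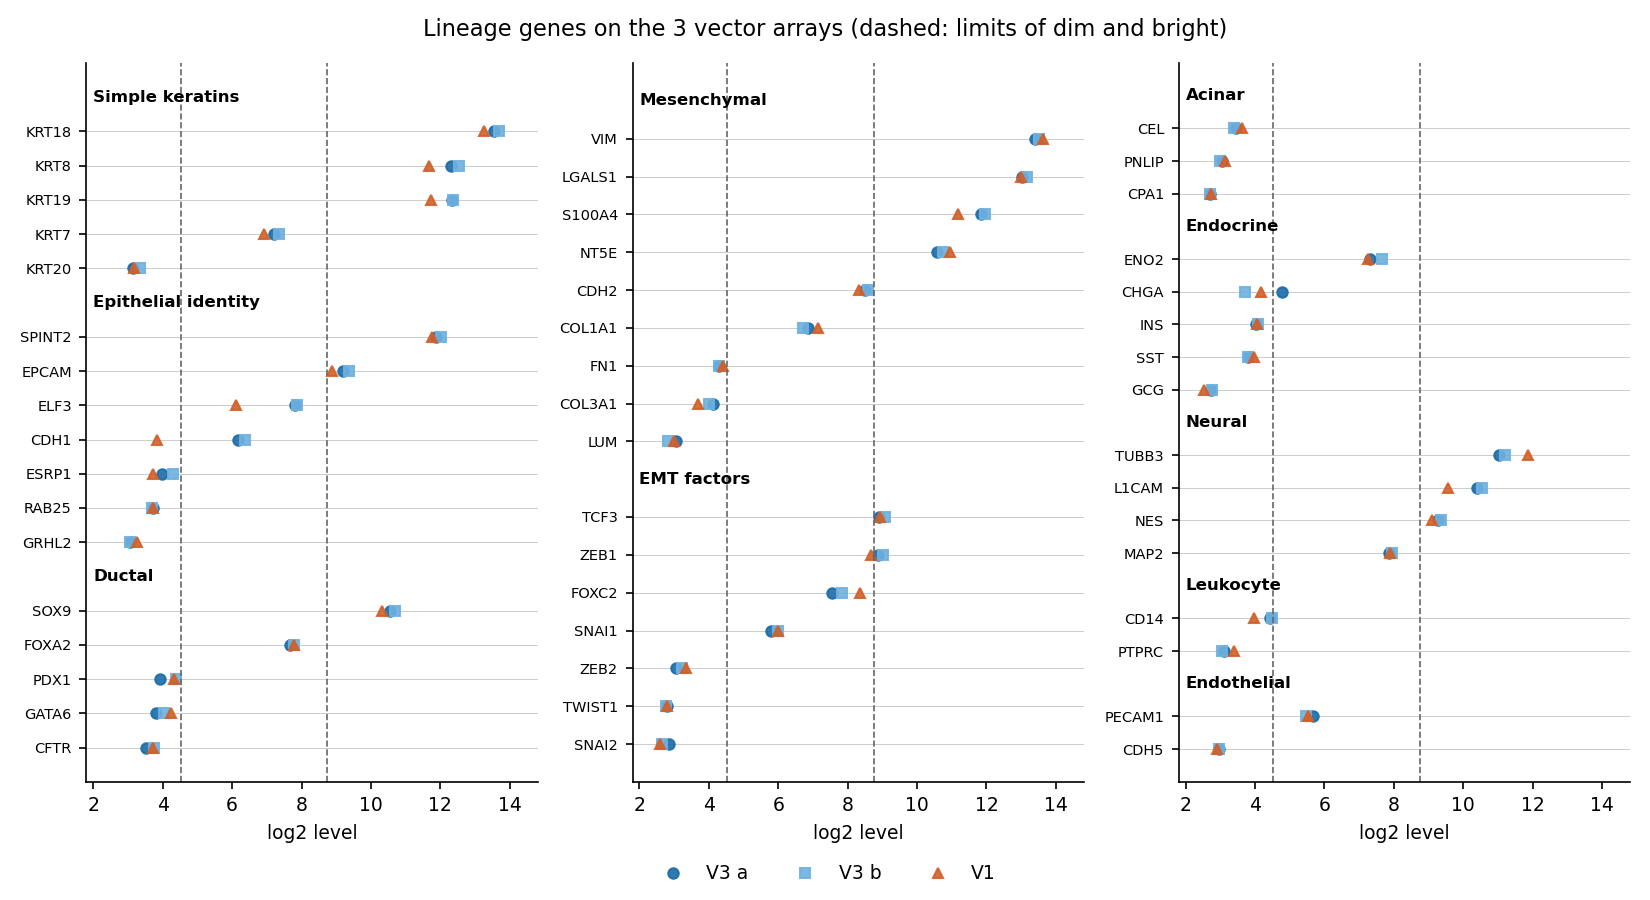
Log2 level of lineage genes on arrays V3 a (circles), V3 b (squares) and V1 (triangles), by list, with the limits of dim and bright as dashed lines. Simple keratins and VIM lie at the bright end together, and the triangle of CDH1 (3.83) lies far to the left of its V3 points (6.17 and 6.36).

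Among markers of stem-like cells, the hyaluronan receptor CD44 was bright (12.38 ± 0.09), as were the retinal-oxidising enzyme gene ALDH1A3 (11.01) and MET (10.91). Other members were dim: PROM1 (2.63), which encodes CD133, ALDH1A1 (2.98), LGR5 (3.69) and the chemokine receptor CXCR4 (3.99). CD24 was intermediate (6.85). Of the 13 CD44 probe sets 7 were bright, all of them on each array.

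Adhesion to matrix was bright at its core. ITGB1, the beta subunit shared by most collagen, laminin and fibronectin receptors, read 12.62, 12.71 and 12.60. ITGB5 (11.67), the partner of ITGAV in a vitronectin receptor, was bright too. Bright alpha subunits were ITGAV (10.68), ITGAE (9.91), ITGA3 (9.80), ITGA2 (9.52) and ITGA6 (9.04), which makes 5 of 18, and ITGA5, the fibronectin receptor subunit, was just under the limit (8.46). ITGA1 and ITGA4 (both 3.11) and ITGB8 (3.24) were dim. The proteins that link integrins to actin were bright in 11 of 21 cases, led by ACTN4 (12.14), TNS3 (11.81), CAV1 (11.71), VCL (10.96) and the integrin-linked kinase ILK (10.94).

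At adherens junctions 5 of 18 genes were bright, all of them cytoplasmic. They were the catenin genes CTNNA1 (11.11), CTNNB1 (8.85) and JUP (9.18), VCL, and the scaffold AFDN (9.52). No cadherin was bright, and 8 genes of the list were dim, among them the catenins CTNNA2 (2.98) and CTNND2 (3.59), which are known from neurons. In tight junctions, OCLN (10.41) and TJP1 (9.64) were bright and 20 of 25 genes intermediate. In desmosomes, PERP (12.69) was bright, DSG2 (7.34) and DSP (6.63) were intermediate, and the epidermal cadherins DSG1 (2.59), DSG3 (3.52) and DSC3 (3.05) were dim. Gap junction genes GJC1 (10.05), PANX1 (9.84) and GJB2 (9.21) were bright. Among other surface adhesion genes 9 of 26 were bright, including the tetraspanins CD63 (12.54), CD9 (11.49), CD81 (11.31) and CD151 (9.55), which organise integrins in the membrane. The tetraspanin CD82 was intermediate (7.11), and TSPAN8, from the classical subtype list, was dim (4.28).

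None of 14 mucin genes was bright. MUC1 (7.37) was the highest, MUC5AC (5.39) was intermediate, and MUC4 (4.58) lay at the dim limit. Of 23 collagen genes only COL18A1 (10.42), the source of endostatin, was bright, and the basement membrane collagens COL4A1 (3.34) and COL4A2 (3.47) were dim. Laminin genes LAMC1 (9.48), LAMA5 (9.28) and LAMB1 (9.10) were bright, whereas LAMB3 (3.26) was dim. Matricellular genes CCN1 (12.09) and CCN2 (10.93) were bright, and THBS1 (4.16) and TNC (2.94) were dim. Among proteases, PLAU (11.22), the urokinase activator of plasminogen, CTSB (10.91), ADAM10 (10.51) and ADAM9 (10.12) were bright. Matrix metalloproteinases were not: MMP2 (8.44) and MMP14 (6.58) were intermediate, and MMP1 (3.01), MMP3 (2.78) and MMP9 (4.30) were dim.

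Within the ERBB family, EGFR was the only bright receptor or ligand of 13. It read 9.98 and 10.17 on V3 and 11.43 on V1 at its most intense probe set. ERBB2 was intermediate (7.06), and ERBB3 (4.11) and ERBB4 (3.48) were dim, as was the ligand gene EGF (2.79). Other bright receptor kinases were MET (10.83, 10.90 and 10.99), the receptor of hepatocyte growth factor, EPHA2 (10.54) and EPHB4 (9.27), which bind ephrins, and AXL (10.35) and MERTK (8.85), which bind GAS6. They were 5 of 28 genes, a share close to the background. The MET ligand gene HGF was intermediate, close to the dim limit (4.78). Secreted factors in the bright tier included GDF15 (12.32, 12.41 and 10.62), a stress-induced cytokine, MDK (9.85) and VEGFA (9.50).

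**Figure D3:**
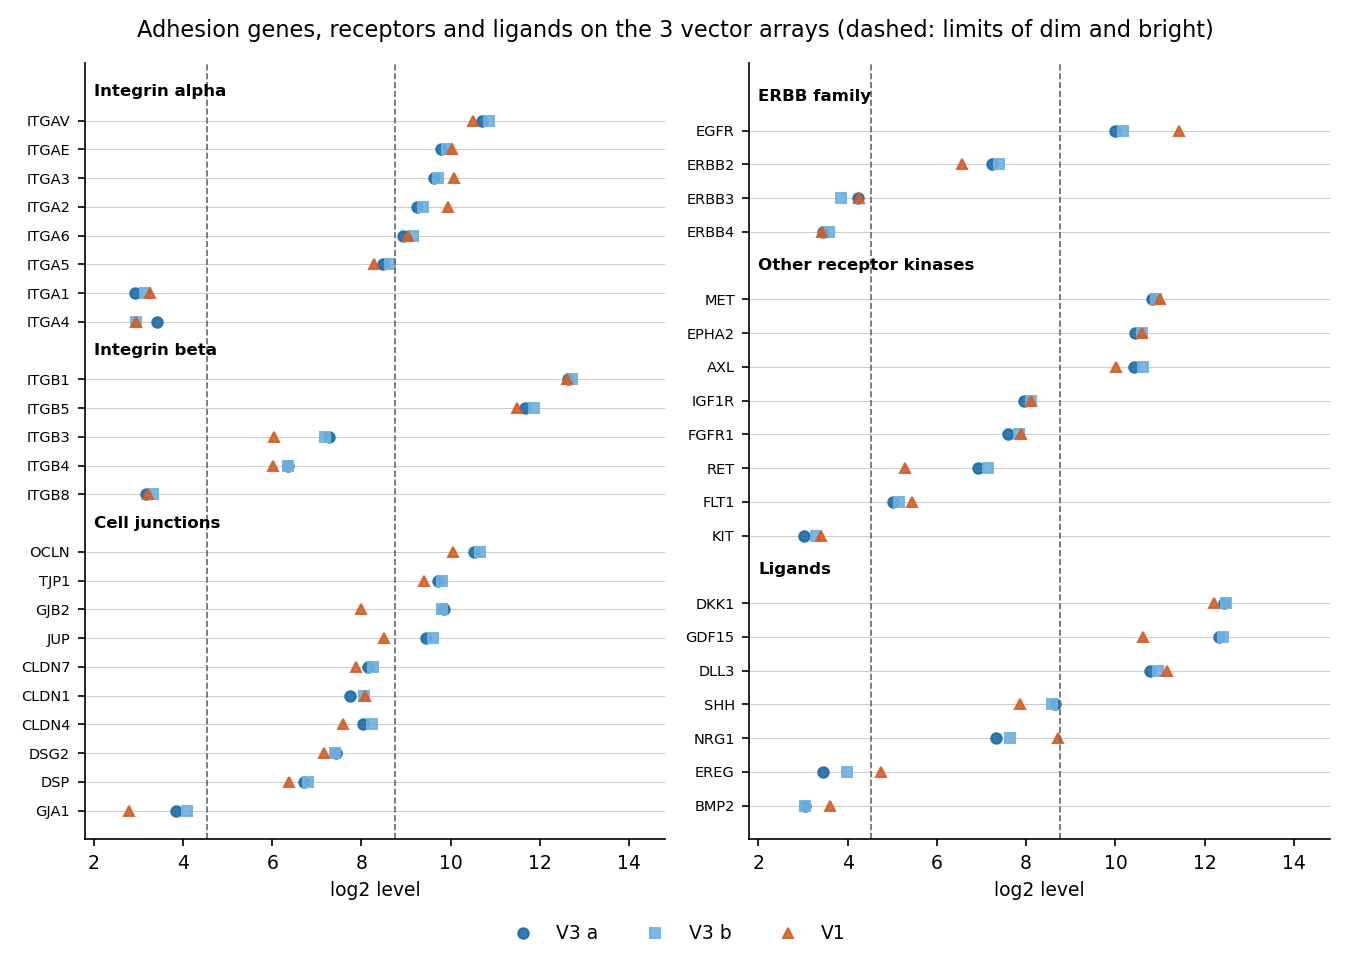
Log2 level of integrins, junction genes, receptor kinases and ligands on arrays V3 a (circles), V3 b (squares) and V1 (triangles), with the limits of dim and bright as dashed lines. ITGB1, MET and EPHA2 coincide on the 3 arrays, whereas EGFR lies higher and GDF15 and GJB2 lie lower on V1.

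Downstream of receptors, 9 of 18 measured genes of the RAS, MAPK and PI3K list were bright and none dim, with the adaptor SHC1 (12.42), the mTOR activator RHEB (12.11) and AKT2 (11.10) at the top. Genes that follow ERK activity were bright in 13 of 21 cases: PHLDA1 (11.76), IER3 (11.39), the AP-1 subunit FOSL1 (10.93), MYC (10.38) and the phosphatase DUSP1 (10.32). DUSP4 (3.55) was the dim member. Hippo pathway genes were bright in 12 of 19 cases, including the coactivators WWTR1 (11.82) and YAP1 (10.06), their DNA-binding partner TEAD1 (10.35) and the core kinase STK4 (9.31). The YAP target ANKRD1 was dim (2.96).

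The secreted Wnt inhibitor DKK1 was bright at 12.42, 12.49 and 12.21, and DKK3 (9.76) and SFRP1 (8.83), which also restrain Wnt, were bright. AXIN2 (5.50), LEF1 (4.32) and RNF43 (4.64), genes commonly induced by Wnt, were intermediate or dim. In the Notch pathway, DLL3 (10.96), NOTCH2 (10.54) and RBPJ (9.03), the DNA-binding effector, were bright. None of 13 Hedgehog genes was bright. The ligand SHH read 8.64, 8.59 and 7.87, and the receptor PTCH1 (5.58) and target GLI1 (5.71) were intermediate. In the TGF-beta pathway, SMAD3 (10.52), SMAD2 (9.55) and the receptor TGFBR2 (9.05) were bright, and SMAD4, their shared partner, was intermediate.

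Cell cycle genes were bright as a group: 22 of 31 were bright and none was dim. Of the inhibitors and tumour suppressors, 1 of 16 was bright, ARID1A (10.08), a chromatin remodeller. CDKN2A, which encodes inhibitors of the cell cycle, read 5.48, 5.20 and 5.70, its 2 other probe sets had means of 3.47 and 3.06, and its neighbour CDKN2B was dim (3.02). Antigen presentation was bright on its class I arm, with B2M (12.78), HLA-C (10.81), HLA-B (10.63) and TAPBP (10.11), and dim for the class II genes HLA-DRA (4.05) and HLA-DPA1 (3.53). Interferon-induced IFITM3 (12.48) was bright. CCL2 (10.08), a monocyte attractant, and CSF1 (8.77) were the bright cytokine genes of 21, and IL6 (3.13) was dim.

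Within the S100 family, S100A6 (12.79), S100A10 (12.69), S100A4 (11.65), S100A11 (11.24), S100A16 (10.12) and S100A13 (9.26) were bright. S100P itself, the gene the study overexpressed in its other clones, was intermediate. It read 5.65, 6.01 and 4.65, and V1 was the lowest array. The tier alone does not show expression, as 18 of the 60 markers of other cell types were intermediate too.

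**Figure D4:**
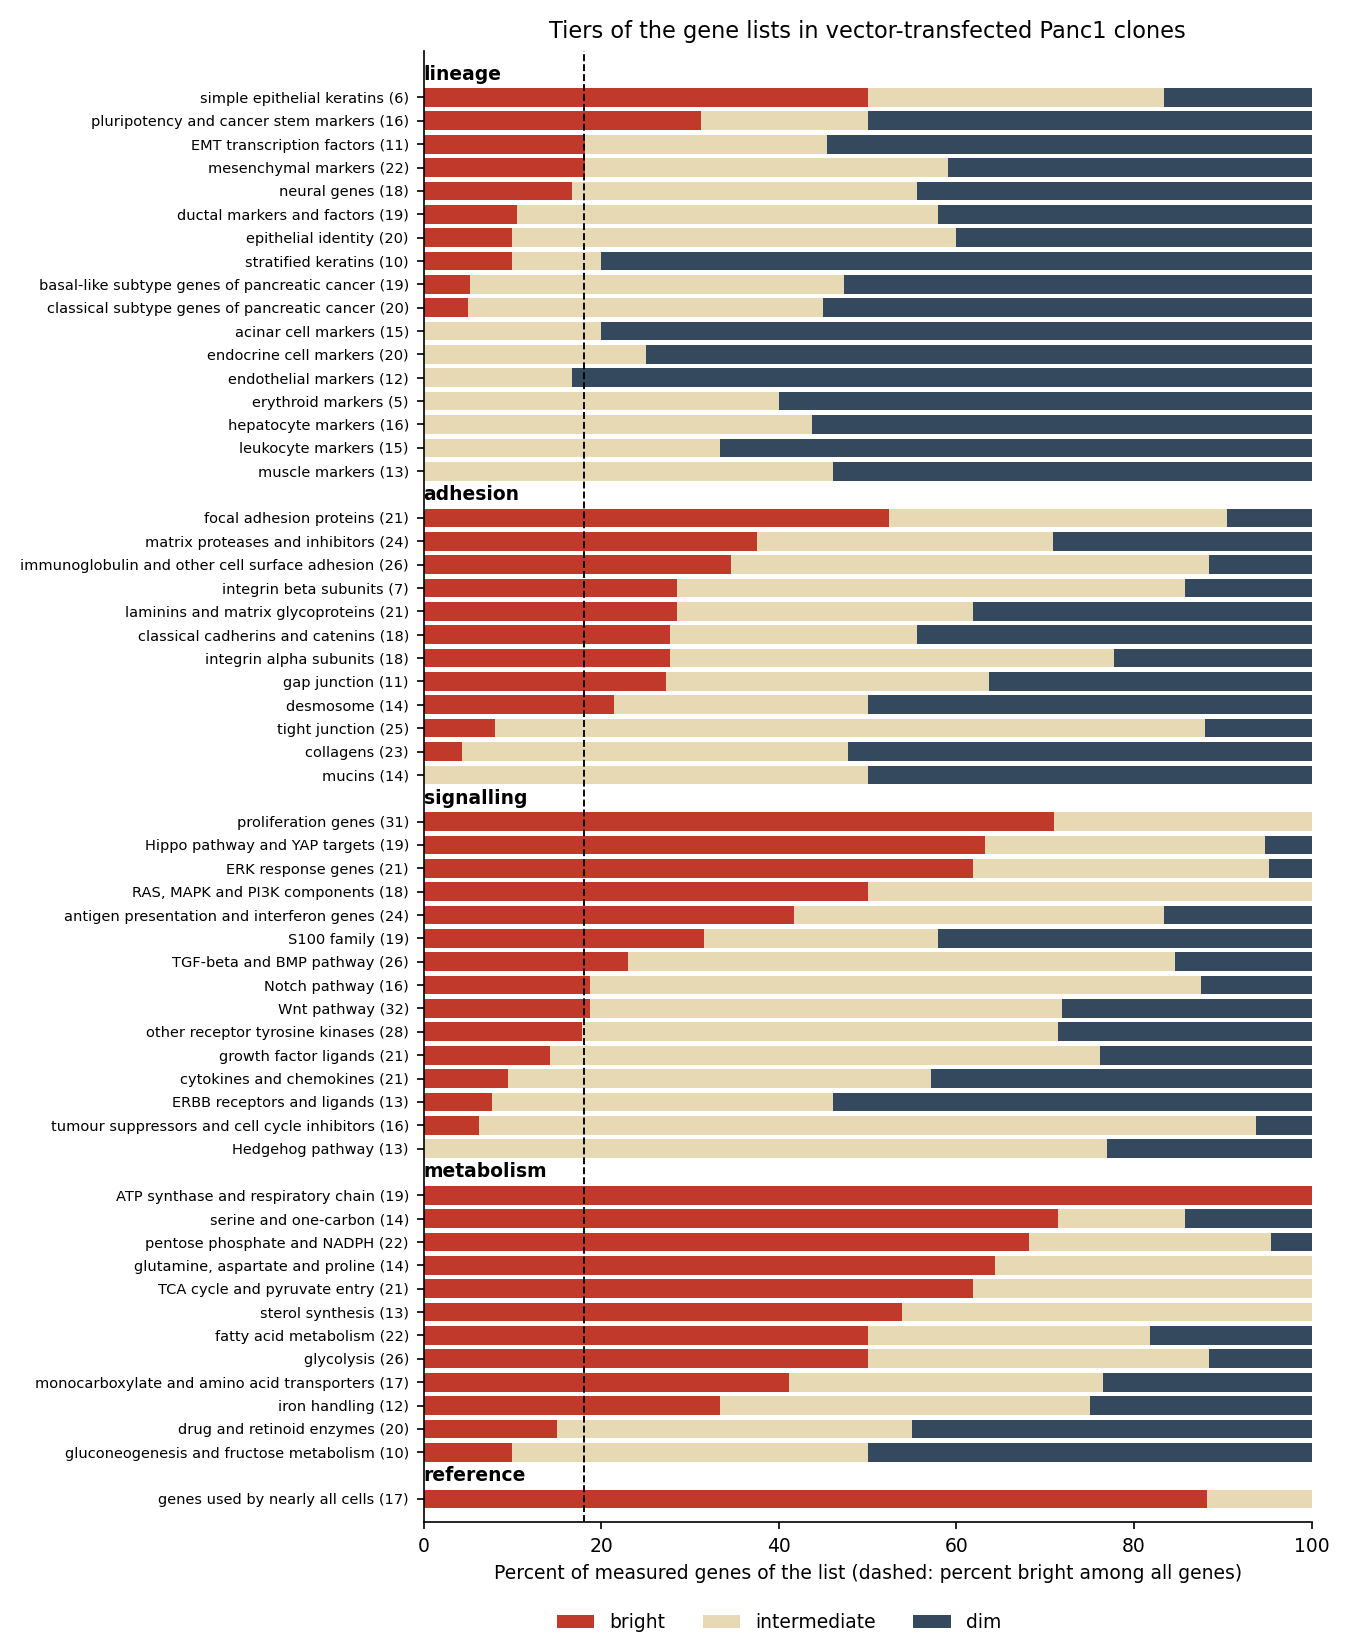
Percent of the measured genes of each list that were bright (red), intermediate (cream) or dim (dark), grouped by theme, with the number of genes in parentheses and the share of bright genes on the array (18.1%) as a dashed line. Respiratory chain, reference and cell cycle lists are mostly bright, and no marker of acinar, endocrine, endothelial, erythroid, liver, leukocyte or muscle cells is.

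Metabolic lists held many bright genes. All 19 genes of the respiratory chain and ATP synthase were bright, with levels from 9.63 (NDUFS1) to 12.54 (COX7C). In glycolysis 13 of 26 genes were bright. GAPDH (13.60), ENO1 (12.96), LDHA (12.79), ALDOA (12.76), PGK1 (12.33), PKM (11.95), PFKP (11.37) and HK1 (10.65) were bright, while HK2 (6.35), SLC2A1 (7.82), the common glucose transporter gene, and ALDOC (6.71) were intermediate, and SLC2A3 (3.73), PKLR (4.40) and PGAM2 (4.22) were dim. The tricarboxylic acid cycle was bright in 13 of 21 cases, led by MDH2 (12.10), MDH1 (11.59) and CS (10.83). Gluconeogenesis was not: FBP1 (4.12) and PCK1 (2.95), its committed enzymes, were dim.

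Glutamine, aspartate and proline enzymes were bright in 9 of 14 cases, with OAT (11.86), ASNS (11.15), which makes asparagine, and GOT2 (10.28). In serine and folate metabolism 10 of 14 were bright, with mitochondrial MTHFD2 (11.84) and SHMT2 (10.12) and cytosolic MTHFD1 (10.06) among them. The 2 dim ones were cytosolic SHMT1 (3.19) and mitochondrial MTHFD1L (3.21), so the tiers did not divide by compartment. The amino acid transporters SLC38A2 (11.71), SLC38A1 (11.18), SLC7A1 (10.50) and SLC7A5 (10.02) were bright. Of genes that supply or use NADPH, 15 of 22 were bright, with PRDX1 (12.62), TXNRD1 (11.76), NQO1 (10.62), a target of NRF2, and HMOX1 (10.15).

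Of 22 fatty acid genes 11 were bright and 4 dim. SCD, the desaturase that makes oleate, read 12.45, 12.52 and 12.06, and ACLY (10.74), ACACA (9.88) and FASN (9.82) were bright, as were 7 of 13 sterol genes, with DHCR7 (10.27), IDI1 (10.23), FDPS (10.21) and SQLE (9.96). The elongase ELOVL6 was dim (3.36), and the desaturase FADS2 (8.69) and the sterol genes HMGCS1 (7.35) and MVD (6.29) were intermediate. The fatty acid transporter CD36 (3.43) and the binding protein FABP4 (3.12) were dim, whereas FABP5 was bright. In iron handling, ferritin light chain FTL (13.44) and the transferrin receptor TFRC (12.50) were bright, and the exporter SLC40A1 was dim (3.88). Of 20 drug and retinoid enzymes 3 were bright, ALDH1A3, GSTP1 (10.66) and CYP1B1 (9.73). AKR1C3 (2.90), AKR1B10 (3.07) and the cytidine deaminase gene CDA (4.35), which inactivates gemcitabine, were dim.

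The 2 vector clones were then compared with each other, as 7 arrays of 4 clones fitted in limma with V1 minus V3 as the contrast. At an adjusted p of 0.05, V1 was above V3 at 507 genes (2.56%) and below it at 992 (5.02%), counted at the representative probe set. Among the listed genes these were 46 (4.78%) and 86 (8.93%) of 963. V1 rests on 1 array, and the spread came from the 3 clones with 2 arrays. That spread may be technical, so a call says that the V1 array differed from the V3 pair by more than arrays of a clone differ, and the spread between separate cultures of V1 was not measured. The calls depend on that estimate: with only the 3 vector arrays in the limma fit no probe set passed, against 7946 at an unadjusted p under 0.05, and none passed without V3 a (10507 unadjusted) or without V3 b (11733). None passed either without an array of S100P clone 1 (8584 unadjusted). The label of V1 also carries another prefix than the others, and a batch of its own and the clone cannot be told apart. Measured features of the sample preparation moved with V1. All 24 probe sets for the bacterial poly-A controls (dap, lys, phe and thr), which are added to RNA before labelling, read lower on V1 than on both V3 arrays, with a median difference of -0.70. Of 18 probe sets for hybridisation controls 2 did so, with a median difference of -0.03. The 3' minus 5' difference of ACTB was 0.28 and 0.32 on V3 and 0.18 on V1. The part of these features in the differences below was not tested.

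Cell cycle genes were higher in V1, in which 2.56% of all genes passed above V3 and 5.02% below. Of 31 genes 20 passed above V3 and 1 below, and 30 of 31 lay above both V3 arrays, against 38.9% of all genes. The median difference over the list was 0.71, and over all probe sets 0.02. RRM1, a subunit of the enzyme that makes deoxynucleotides, read 10.04 and 10.09 on V3 and 11.11 on V1, a log2 difference of 1.05 ± 0.11 (SE, limma adjusted p = 0.004019). MKI67, the Ki-67 proliferation marker, read 9.44, 9.70 and 10.57, and its 3 other probe sets differed in the same direction by 0.92, 0.81 and 0.72. The mitotic kinase gene CDK1 read 9.87, 9.99 and 10.74 (0.81 ± 0.11, limma adjusted p = 0.01036). The helicase subunit MCM7 read 10.21, 10.34 and 11.12, and RRM2, the other ribonucleotide reductase subunit, 11.71, 11.82 and 12.41. The largest difference of the list was in CDK6, which drives entry into the cycle. It read 6.97, 7.33 and 8.73 (1.58 ± 0.17, limma adjusted p = 0.004992), and all its 7 probe sets were higher on V1. CCND2, a D-type cyclin, went the other way, at 6.07, 5.75 and 4.76. In bulk RNA, more cycling cells and more RNA of these genes per cell cannot be told apart.

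The promoters of 3 of these genes are shown because many cell cycle genes share binding motifs of E2F factors, NF-Y (CCAAT) and the DREAM complex (CHR). They are RefSeq sequences on GRCh38.p14, from 250 bases before to 50 after the gene's start, with matches in capitals. E2F was searched as TTTGGCGC, TTTCCCGC, TTTGCCGC or TTTCGCGC, NF-Y as CCAAT and CHR as TTTGAA or TTCGAA, all on both strands.
CDK1 promoter, chr10:60778081-60778380, plus strand: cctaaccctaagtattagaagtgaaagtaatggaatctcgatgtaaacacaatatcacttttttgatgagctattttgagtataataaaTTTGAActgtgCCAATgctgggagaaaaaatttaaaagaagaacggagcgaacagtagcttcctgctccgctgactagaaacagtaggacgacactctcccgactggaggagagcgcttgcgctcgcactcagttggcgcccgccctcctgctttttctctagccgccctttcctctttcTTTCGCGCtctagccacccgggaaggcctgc
MCM7 promoter, chr7:100101348-100101647, minus strand: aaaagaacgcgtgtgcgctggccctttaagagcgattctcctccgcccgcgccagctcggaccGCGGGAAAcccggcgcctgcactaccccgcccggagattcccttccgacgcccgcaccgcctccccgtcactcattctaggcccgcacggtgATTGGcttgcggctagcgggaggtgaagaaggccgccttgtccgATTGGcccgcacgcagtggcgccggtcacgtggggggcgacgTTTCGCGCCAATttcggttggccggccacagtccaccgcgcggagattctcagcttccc
RRM2 promoter, chr2:10122489-10122788, plus strand: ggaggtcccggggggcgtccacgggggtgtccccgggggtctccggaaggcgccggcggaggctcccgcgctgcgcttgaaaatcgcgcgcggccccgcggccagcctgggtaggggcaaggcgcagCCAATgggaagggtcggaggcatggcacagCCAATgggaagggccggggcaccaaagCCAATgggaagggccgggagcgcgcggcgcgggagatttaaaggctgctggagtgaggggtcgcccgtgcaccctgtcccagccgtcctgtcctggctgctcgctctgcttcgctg
CDK1 held all 3 motifs, MCM7 held E2F and CCAAT matches, one of each overlapping, and RRM2 held 3 CCAAT boxes. Of the 20 cell cycle genes above V3, 17 had a promoter in the table. An E2F match was in 6 of them (35.3%), against 3.33% of all 27305 promoters of that length. CCAAT was in 11 (64.7%, against 35.7%) and CHR in 5 (29.4%, against 16.6%). These genes came from a list of cell cycle genes, many of which share such motifs, so the shares say nothing of V1 against V3. Members of the list that did not pass above V3 were not counted apart. A match describes the letters of the window and not a bound site.

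Some early response genes of ERK signalling were lower in V1, in which 5.02% of all genes passed below V3 and 2.56% above. Of 21 genes 5 passed below V3 and none above, and the median difference was -0.04. FOS, an AP-1 subunit, read 7.27 on both V3 arrays and 3.73 on V1, a difference of -3.54 ± 0.19 (limma adjusted p = 0.0006782). EGR1, a zinc finger factor induced within minutes of stimulation, read 10.03, 10.12 and 7.29 (-2.78 ± 0.13, limma adjusted p = 0.0006782), and its other probe sets differed by -1.91 and -1.69. DUSP6, an ERK phosphatase, read 8.16, 8.38 and 6.95, and JUNB 7.99, 7.99 and 6.82. FOSL1, MYC and IER3 did not pass, and FOSL1 read higher on V1 (10.62, 10.77 and 11.39). Of the 21 genes 7 lay above both V3 arrays and 11 below both, against 38.9% and 31.4% of all genes. The EGR1 promoter is shown with its CArG boxes, the sites of serum response factor, in capitals. Of the 4 members below V3 with a promoter in the table it alone held one, which 1.29% of all promoters do.
EGR1 promoter, chr5:138465229-138465528, plus strand: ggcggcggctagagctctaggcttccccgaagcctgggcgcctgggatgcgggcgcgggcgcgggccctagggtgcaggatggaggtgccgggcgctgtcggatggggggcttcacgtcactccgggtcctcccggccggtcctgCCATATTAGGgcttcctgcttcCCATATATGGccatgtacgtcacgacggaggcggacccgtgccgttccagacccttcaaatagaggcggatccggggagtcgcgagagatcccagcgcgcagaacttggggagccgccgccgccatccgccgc

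Amino acid genes were lower in V1 in part. Over all genes 5.02% passed below V3 and 2.56% above. In serine and folate metabolism 4 of 14 genes passed below V3: PHGDH, which starts serine synthesis (9.99 and 10.15 on V3, 7.60 on V1, -2.47 ± 0.13, limma adjusted p = 0.0006782), its pathway partner PSAT1 (10.80, 10.84 and 9.83), and CBS and CTH, which make cysteine. TYMS and MTHFD1 of the same list passed above. Among glutamine, aspartate and proline enzymes 3 of 14 passed below, ASNS (11.66, 11.73 and 10.06), ASS1 (8.28, 8.52 and 5.90) and CPS1. Among transporters 3 of 17 passed below, SLC38A2, SLC7A11 and SLC1A4. NUPR1, a stress-induced chromatin protein outside the lists, differed by -2.83 ± 0.13. No gene of the respiratory chain or of the 17 genes used by nearly all cells passed in either direction.

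Epithelial genes were lower in V1 as well. The shares of all genes that passed were 5.02% below V3 and 2.56% above. In the epithelial identity list 5 of 20 passed below V3 and 1 above, and 12 of 20 lay below both V3 arrays, against 31.4% of all genes. CDH1 differed by -2.43 ± 0.13 (limma adjusted p = 0.0006782), the protease inhibitor SPINT1 by -2.26 ± 0.16, and the epithelial transcription factors ELF3 by -1.73 ± 0.11, GRHL3 by -1.26 ± 0.12 and GRHL1 by -0.96 ± 0.13. OVOL1 was higher in V1 (0.61 ± 0.14). KRT8 and KRT19 passed below V3 too, by -0.74 ± 0.17 and -0.61 ± 0.12. Of 11 gap junction genes 4 passed below, GJB6 (8.15, 8.36 and 5.39), GJB2 (9.84, 9.81 and 7.99), GJA3 and GJA1. Mesenchymal genes did not move the opposite way as a list: 4 of 22 passed below (MMP2, CDH11, SPARC and S100A4) and 1 above (THY1). Neither VIM nor ZEB1 passed.

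**Figure D5:**
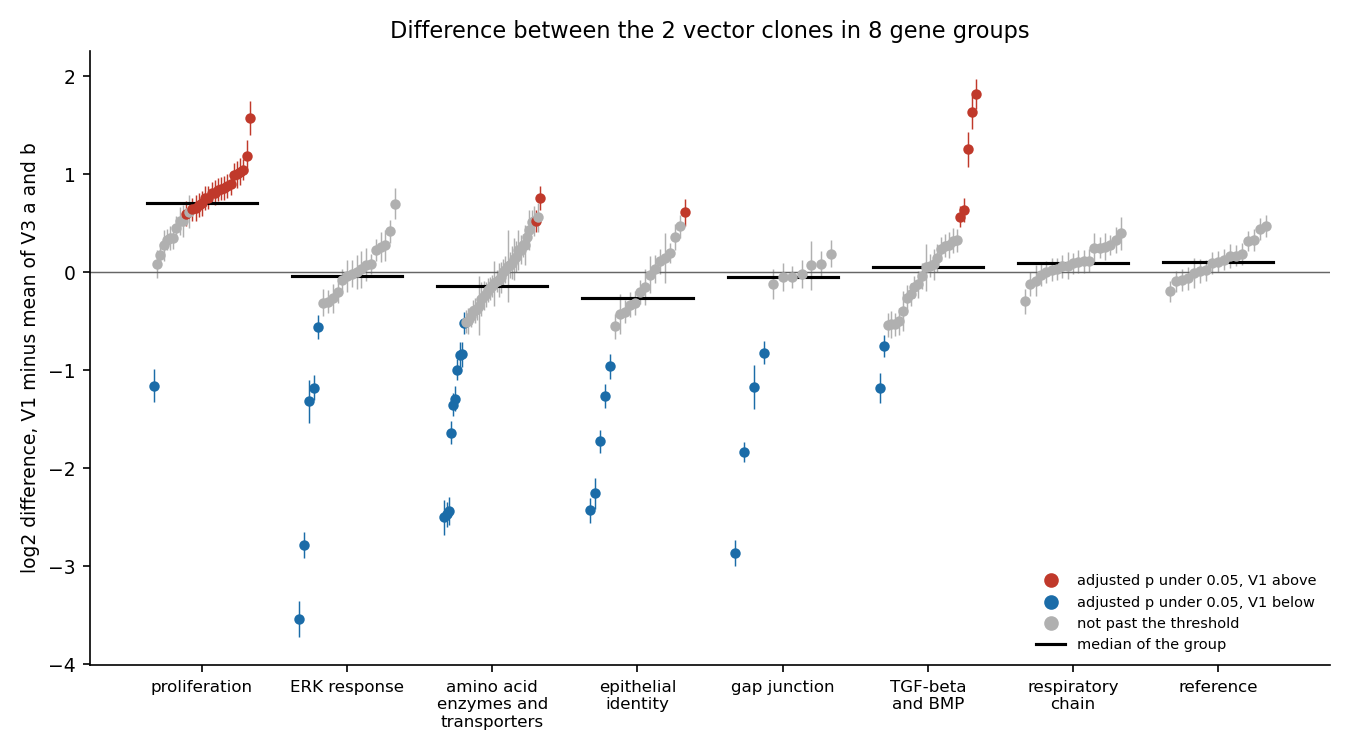
Log2 difference of V1 minus the mean of V3 a and b for each gene of 8 groups, chosen with these values known, with error bars of 1 limma SE, black lines at group medians and colours for adjusted p under 0.05. The cell cycle group lies almost wholly above 0, the ERK, amino acid and epithelial groups have tails below it, and the respiratory chain and reference groups lie near it with no call.

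In the TGF-beta and BMP list 5 of 26 genes passed above V3 and 2 below. Above were the inhibitors of differentiation ID1 (9.79, 10.15 and 11.22), ID2 (3.65, 3.98 and 5.45) and ID3 (5.94, 6.27 and 7.93), classical targets of BMP signalling, SKI (0.64 ± 0.12) and the ligand gene BMP2 (3.04, 3.04 and 3.61), which stayed dim. Below were SKIL (-1.18 ± 0.15), a SMAD repressor, and TGFBR2 (-0.75 ± 0.11). Over all genes 2.56% passed above V3 and 5.02% below. SMAD6, another BMP target, did not pass (-0.53). ID3 differed by 1.82 ± 0.16 (limma adjusted p = 0.002297). EGFR passed above V3 at its most intense probe set (1.35 ± 0.14, limma adjusted p = 0.003981). Of its 9 probe sets 3 differed by at least 1, at 1.35, 1.25 and 1.40, while 4 others, among them those with means of 9.36 and 8.93, differed by 0.01, 0.01, -0.20 and -0.09. The EGFR difference thus depended on the probe set. The ligand genes NRG1 (7.33, 7.63 and 8.71) and EREG (3.46, 3.99 and 4.74) were higher in V1, and ERBB2 was lower (7.24, 7.39 and 6.56).

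Several genes outside the lists were among the 15 with the largest differences in their direction. Lower in V1 were BCAT1 (8.76, 8.30 and 5.87), which transaminates branched-chain amino acids, the cyclin CCNG2 (8.29, 8.40 and 5.63), the glucose transporter SLC2A12 (9.08, 9.15 and 6.44), the Src-family kinase FYN (6.42, 6.50 and 3.96) and the p38 kinase activator MAP2K6 (7.47, 7.84 and 5.16). Higher in V1 were the glucocorticoid receptor NR3C1 (7.78, 8.30 and 9.82), the IGF-binding protein IGFBP4 (6.32, 6.66 and 8.16) and MCM8 (6.72, 7.12 and 8.51), a helicase of DNA repair.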

How the data were processed

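RNA of 7 Panc1 arrays was measured, of which the 3 vector control arrays are described. The deposited values are log2 levels per probe set, made by the authors with RMA, per the submitters' processing notes; neither the version nor whether 1 run covered all arrays is given in the sources used. RMA equalises arrays, so a change shared by most genes would be hidden. Of 54675 probe sets 62 controls were left out; 41091 of the others had 1 gene symbol, 1801 several and 11721 none in GEO's platform annotation. The probe set of highest mean stood for each gene. V1 and V3 were compared with limma 3.58.1 (R 4.3.3; lmFit, eBayes, two-sided, Benjamini-Hochberg over 54613 probe sets, 4 clones as fixed effects), tested on simulated data first. Figures used matplotlib 3.10.9. Genes were named if among the 25 brightest, in a list, or among the 15 largest differences per direction past the threshold. The members and lists were chosen with earlier results of these data known. With 3 arrays, their number limits the precision. Alternatives covered the tier limits, the probe set of a gene, normalisation, single arrays and the fit.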

Additional observations from a re-analysis of the deposited data

How the results depend on the processing

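Tier shares rested on the limits and on the choice of probe set, and little on the arrays. The share of bright genes was 13.1% with the median probe set of a gene, 11.64% with unique probe set types, 9.12% with the top 5%, 40.08% with the top 25% and 26.56% with a log2 level of at least 8 as bright. The share of dim genes was 40.07% with the median probe set, 42.41% with unique types, 14.91% with the lower 25% and 40.71% with a level under 5 as dim. Quantile normalisation, equal weights of the clones and leaving out each vector array in turn moved both shares by less than the spread between arrays (bright 18.04% to 18.2%, dim 35.09% to 35.23%). Of the 963 listed genes, 942 to 947 kept their tier without one array, 837 with the median probe set and 677 of 769 with unique types. For V1 against V3, limma called 1405 probe sets above and 1790 below. With only the 3 vector arrays 0 passed in either direction. With the upper 50% of probe sets by mean 2310 passed above. Leaving out 1 array gave 0 to 332 above and 0 to 577 below. The 332 and 577 came without an array of S100P clone 5, where 8 of the 20 cell cycle calls passed, and the values of 0 without V3 a, V3 b or an array of S100P clone 1. Leaving out S100P arrays was added after seeing the data and changes the spread only. Without V1 no contrast could be fitted. Mean variance trend and median centring kept both counts within 1.5 times. The cause of these changes was not tested. No paired analysis was possible because V1 carries none of the letters (a and b) that the arrays of the other clones share, so V1 minus V3 has no pair.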
